A study of Mus musculus with 12 samples.

Results

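Aminoacyl-tRNA synthetases, the enzymes that join each amino acid to its transfer RNA, were followed in ribosome footprints and messenger RNA of the adult mouse heart. The members were matched by gene symbol, and they were chosen with earlier results of these data known. They were taken from the cytosolic and mitochondrial synthetases and 3 scaffold proteins, and 41 of the 21669 transcript names in the count tables matched. They comprised 8 cytosolic enzymes of the multisynthetase complex, 13 other cytosolic enzymes, 3 scaffolds of the complex (*Aimp1*, *Aimp2* and *Eef1e1*) and 17 mitochondrial enzymes, whose symbols end in 2. *Tarsl2*, whose symbol also ends in 2, encodes a cytosolic enzyme and was counted as such. The study profiled left ventricle of wild-type (WT) mice and of mice lacking *Rpl3l* (Rpl3l-/-, KO), the gene of a large-subunit ribosomal protein made in striated muscle in place of its paralog *Rpl3*. Ribosome-protected fragments (RPF) were sequenced from lysate digested with RNase I, and polyadenylated RNA from undigested lysate. Each genotype had 3 biological replicates in each assay, giving 4 groups and 12 libraries, called below by assay, genotype and number (RPF WT 1, RNA KO 3). The labels give the age as adult and name no other allele or time for any group, and cycloheximide was in the homogenisation buffer of all groups. They do not say whether the loss of *Rpl3l* was restricted to a cell type.

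A synthetase first activates its amino acid with ATP and then transfers it to the 3′ end of the matching tRNA, and the accuracy of that pairing sets the accuracy of translation. In mammals a group of cytosolic synthetases is held together by the scaffold proteins in the multisynthetase complex, while the rest work outside it. Mitochondria translate their own few mRNAs, which encode respiratory chain subunits, and for this they import a separate set of synthetases made from nuclear genes. Heart muscle is rich in mitochondria, and inherited defects of several mitochondrial synthetases are known to cause cardiomyopathy.

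Total counts ranged from 3827862 to 7474602 in the RPF libraries and from 6635242 to 8459004 in the RNA libraries. Members took 10288 to 19785 counts of an RPF library and 7579 to 10869 counts of an RNA library, in which mitochondrially encoded mRNAs took 49.8% to 58.2%. Levels below are CPM, the counts relative to the library total after that total was adjusted by a TMM scaling factor, computed within each assay. The floor of detection was taken as 3 counts, worth 0.355 to 0.784 CPM by the library totals without that factor. *Rpl3l* had 2987, 2726 and 3329 RNA counts in WT against 276, 310 and 442 in KO, and 937, 985 and 1108 RPF counts against 65, 30 and 61. The KO libraries were thus low in *Rpl3l*, and the groups did not overlap. Each of 6 cardiomyocyte markers was detected, with a summed level of 38629 to 53052 CPM in RNA. Of 5 kidney markers, 4 were at 0 in every RNA library of each genotype, but their sum reached 28.7 to 150 CPM in RPF, where 2 of 5 were at 0 in every KO library and 3 in every WT library. Among the RPF libraries WT 1 stood apart on the first principal component, which held 37.4% of the variance, and the RNA libraries fell into 2 sets that are described below with the values they touch.

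The start of the coding sequence set mitochondrial and cytosolic enzymes apart, as a feature of the sequence and not of these libraries. Proteins imported into mitochondria usually carry an N-terminal signal rich in arginine and poor in acidic residues. Over the 40 codons from the start codon, the 17 mitochondrial enzymes had a median of 6 arginine codons (range 3 to 9) and 1 codon for aspartate or glutamate (range 0 to 4). The 21 cytosolic enzymes had medians of 3 (0 to 9) and 6 (0 to 10), and all 21175 genes with a readable start had medians of 2 and 4. At least 4 arginine codons with at most 2 acidic codons were found in 12 mitochondrial enzymes (70.6%), 1 cytosolic enzyme (4.76%) and 8.59% of all genes. The cytosolic exception was *Gars*, the glycyl-tRNA synthetase, with 4 arginine codons and 0 acidic ones. *Gars* and *Kars*, the lysyl-tRNA synthetase, are known to serve both compartments from a single gene each, *Gars* through alternative start sites and *Kars* through alternative splicing. The counted *Kars* transcript opened with 2 arginine, 10 lysine and 8 acidic codons. To show this contrast, the 120 coding bases from the start codon are given for the serine and tryptophan pairs, for *Dars* and for both shared genes, read from GENCODE M21 transcripts, with arginine codons in capitals.
Dars: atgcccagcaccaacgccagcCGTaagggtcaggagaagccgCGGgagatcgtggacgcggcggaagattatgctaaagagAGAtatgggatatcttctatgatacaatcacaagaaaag
Sars: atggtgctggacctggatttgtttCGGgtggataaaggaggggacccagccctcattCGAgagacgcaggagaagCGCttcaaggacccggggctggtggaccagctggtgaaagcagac
Sars2: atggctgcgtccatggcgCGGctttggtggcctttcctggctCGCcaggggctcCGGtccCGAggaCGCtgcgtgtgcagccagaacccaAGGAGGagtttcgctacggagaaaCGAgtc
Wars: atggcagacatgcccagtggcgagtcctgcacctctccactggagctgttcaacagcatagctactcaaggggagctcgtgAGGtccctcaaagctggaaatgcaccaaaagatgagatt
Wars2: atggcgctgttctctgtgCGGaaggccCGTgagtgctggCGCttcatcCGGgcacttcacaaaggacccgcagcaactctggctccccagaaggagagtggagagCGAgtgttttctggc
Kars: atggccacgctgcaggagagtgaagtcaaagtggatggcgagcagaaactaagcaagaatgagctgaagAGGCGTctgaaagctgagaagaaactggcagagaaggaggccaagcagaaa
Gars: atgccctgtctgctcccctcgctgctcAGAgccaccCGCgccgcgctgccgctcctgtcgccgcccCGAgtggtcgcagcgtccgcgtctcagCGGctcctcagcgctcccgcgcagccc

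The transcripts they begin map to these places on GRCm38. *Dars* spans chr1:128363707-128417359 on the minus strand. *Sars* spans chr3:108424865-108445198 on the minus strand and *Sars2* chr7:28742002-28753871 on the plus strand. *Wars* spans chr12:108860034-108893197 on the minus strand and *Wars2* chr3:99141068-99220203 on the plus strand. *Kars* spans chr8:111993443-112011323 on the minus strand and *Gars* chr6:55038007-55079500 on the plus strand. In the printed stretch *Sars2* held 8 arginine codons and 1 acidic codon against 3 and 9 in *Sars*. *Dars* held 3 arginine and 7 acidic codons. *Wars2* held 5 arginine and 3 acidic codons, above the limit of 2 acidic codons used for the count.

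Footprint levels, in CPM per kb of coding sequence, varied 32.0-fold over the members in WT, from *Dars* to *Pars2*. Among the enzymes of the multisynthetase complex, *Dars*, the aspartyl enzyme, had 81.8, 83.4 and 96.4 in the WT libraries and 92.4, 96.8 and 89.7 in the KO libraries. *Kars* followed with a WT mean of 57.0 ± 4.3 (SD, n = 3). The other 6 lay close together, from *Lars*, the leucyl enzyme, at 25.8 ± 2.8 to *Eprs*, the bifunctional glutamyl-prolyl enzyme, at 39.7 ± 5.1. *Dars* thus had 3.39 ± 0.23 times the footprint level of *Lars* in WT and 3.08 ± 0.20 times in KO (SD, n = 3), although both enzymes belong to the complex. Of the scaffolds, *Aimp1*, which is also the precursor of a secreted cytokine, had 53.9 ± 6.7 in WT. *Aimp2*, around which the complex is built, had 27.0 ± 1.7, and *Eef1e1* 29.0 ± 10.8, with 1 WT library at 41.4 and the others at 24.0 and 21.7.

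**Figure D1:**
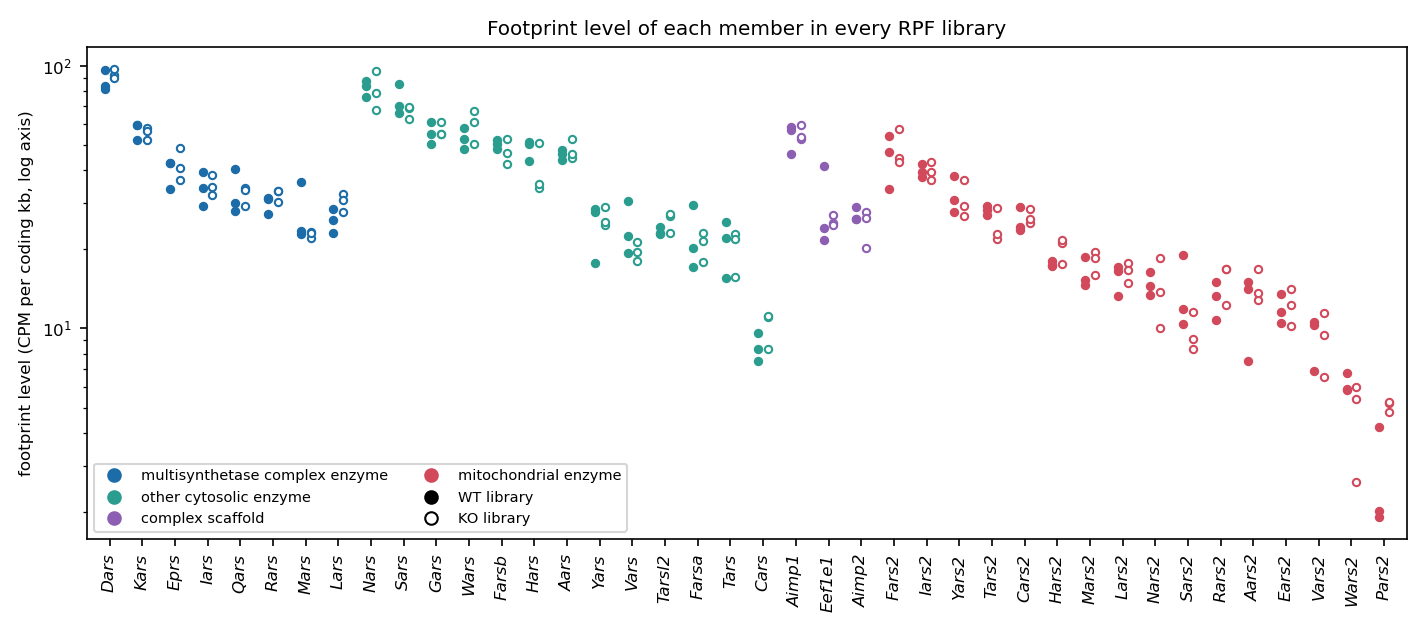
Footprint level of 40 members in every RPF library, as CPM per kb of coding sequence on a log axis. Filled points are WT libraries, open points KO libraries, and colours give the role. Complex enzymes lie between 25.8 and 87.2 on average in WT, and mitochondrial enzymes reach down to 2.72.

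Outside the complex, the asparaginyl enzyme *Nars* and the seryl enzyme *Sars* had WT footprint levels of 82.3 ± 5.9 and 73.7 ± 9.9 CPM per coding kb. The tryptophanyl enzyme *Wars* had 58.0, 52.5 and 48.3 in WT and 67.3, 50.5 and 61.0 in KO, so its groups overlapped. The cysteinyl enzyme *Cars* was lowest of the cytosolic enzymes, with 8.38, 9.58 and 7.52 in WT and 11.1, 8.32 and 11.1 in KO. The phenylalanyl enzyme is a tetramer of equal numbers of alpha (*Farsa*) and beta (*Farsb*) chains. *Farsb* had 2.36 ± 0.54 times the footprint level of *Farsa* in WT and 2.30 ± 0.41 times in KO (SD, n = 3), and it was the higher chain in each of the 6 RPF libraries. The threonyl enzyme *Tars* had 0.896 ± 0.22 times the level of its paralog *Tarsl2* in WT and 0.792 ± 0.18 times in KO, with libraries on both sides of 1 in WT and below it in KO. In RNA per transcript kb the same ratio lay between 2.10 and 2.90 in the WT libraries and between 2.96 and 4.98 in the KO libraries, so *Tars* led in RNA and not in footprints. The other cytosolic enzymes had WT means from 22.3 (*Farsa*) and 23.5 (*Tarsl2*) to 48.2 (*Hars*) and 50.3 (*Farsb*), with *Gars* above these and *Tars* below.

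The mitochondrial enzymes spread 16.5-fold in WT. At the top, the phenylalanyl enzyme *Fars2* had 53.8, 33.9 and 46.8 CPM per coding kb in WT and 57.4, 44.7 and 43.2 in KO. *Iars2*, the isoleucyl enzyme, followed at 39.8 ± 2.2 and the tyrosyl enzyme *Yars2* at 32.2 ± 5.2 (SD, n = 3). The other 11, from *Tars2* at 28.2 ± 1.1 to the valyl enzyme *Vars2* at 9.26 ± 2.1, formed a graded series. At the bottom, the prolyl enzyme *Pars2* had 2.01, 4.23 and 1.92 in WT and 4.80, 5.22 and 5.27 in KO, from 13 to 51 counts a library. *Wars2* had 5.87, 6.79 and 5.84 in WT and 2.61, 5.40 and 5.98 in KO. Neighbours in the order of levels mostly could not be separated: of 40 neighbouring pairs in WT, the libraries of 3 did not overlap, namely *Sars* above *Kars*, *Cars* above *Wars2* and *Wars2* above *Pars2*. Ranked among 10867 genes, the members' WT footprint level had a median percentile of 72.5 for the 21 cytosolic enzymes and 52.1 for the 17 mitochondrial ones.

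Cytosolic enzymes carried more footprints per coding length than mitochondrial ones as a class. The median over the 21 cytosolic enzymes exceeded that over the 17 mitochondrial enzymes 2.23-fold, or by 1.16 ± 0.16 on the log2 scale after adding 0.5 CPM (SD over 6 RPF libraries). Every RPF library had the same direction, from 2.02-fold to 2.68-fold, and the highest ratio was that of WT 1, the library that stood apart. In RNA, per kb of whole transcript, the cytosolic median was 3.29-fold higher, 1.72 ± 0.15 on the log2 scale (SD, 6 RNA libraries), with a range of 2.82-fold to 3.85-fold. Members are not replicates, so no p-value is attached. The RNA difference fell to 0.31 when only members with at least 50 counts on average were kept, and to 1.03 when each member was set against genes of similar 3′ UTR length. Footprints per RNA showed no stable class difference, with log2 values of -0.67, 0.18 and -0.15 in the 3 WT library pairs of the same number and -0.60, 0.14 and -0.55 in the KO pairs.

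For 17 amino acids a cytosolic gene could be set against a mitochondrial gene, with *Eprs* used for both glutamate and proline and *Farsa* for phenylalanine. The ratios of these pairs were taken after adding 0.5 CPM to each gene. The cytosolic gene had the higher footprint level in all 6 RPF libraries in 12 pairs, the mitochondrial gene in 3 pairs, and 2 pairs were mixed. The median WT ratio was 2.57-fold and the median KO ratio 2.10-fold in favour of the cytosolic gene. For proline, *Eprs* exceeded *Pars2* by log2 values of 4.18, 3.22 and 3.90 in WT and 2.99, 3.13 and 2.71 in KO. The tryptophan pair differed 8.03-fold in WT and 12.2-fold in KO. The asparagine pair followed at 5.48-fold in WT and the serine pair at 5.40-fold. Alanine (3.89-fold), glutamate (3.27-fold), histidine (2.70-fold), valine (2.57-fold) and arginine (2.28-fold) lay between. Methionine and leucine had the smallest differences among the 12, at 1.65-fold and 1.64-fold in WT.

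Cysteine, threonine and, for the alpha chain alone, phenylalanine ran the other way. *Cars* stood below *Cars2* by log2 values of -1.77, -1.34 and -1.63 in WT and -1.36, -1.59 and -1.22 in KO, a WT ratio of 0.335. *Farsa* stood below *Fars2* with a WT ratio of 0.495, although the 3 WT libraries ranged from -1.64 to -0.20. The beta chain *Farsb* had a mean of 50.3 CPM per coding kb in RPF WT against 44.9 for *Fars2*, and 47.2 against 48.4 in RPF KO. The *Tars* to *Tars2* ratio was 0.732 in WT and 0.820 in KO, and *Tarsl2*, which carries footprints at about the level of *Tars*, was not added to it. The isoleucine and tyrosine pairs changed sign between libraries, with WT ratios of 0.856 and 0.755. In RNA per transcript kb, the cytosolic gene was higher in all 6 libraries in 11 pairs and the mitochondrial gene in 5, and the alanine pair was mixed. The size of the difference was often far from that in footprints. *Mars* exceeded *Mars2* by log2 values of 6.33, 6.56 and 6.59 in RNA WT but by 0.61, 0.93 and 0.63 in RPF WT. Part of that gap lies in the lengths, since *Mars2* was divided by 11.3 transcript kb in RNA and by 1.76 coding kb in RPF. *Mars2* had 1.57, 1.17 and 0.94 CPM in RNA WT, so the 0.5 CPM added lowered these RNA differences.

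**Figure D2:**
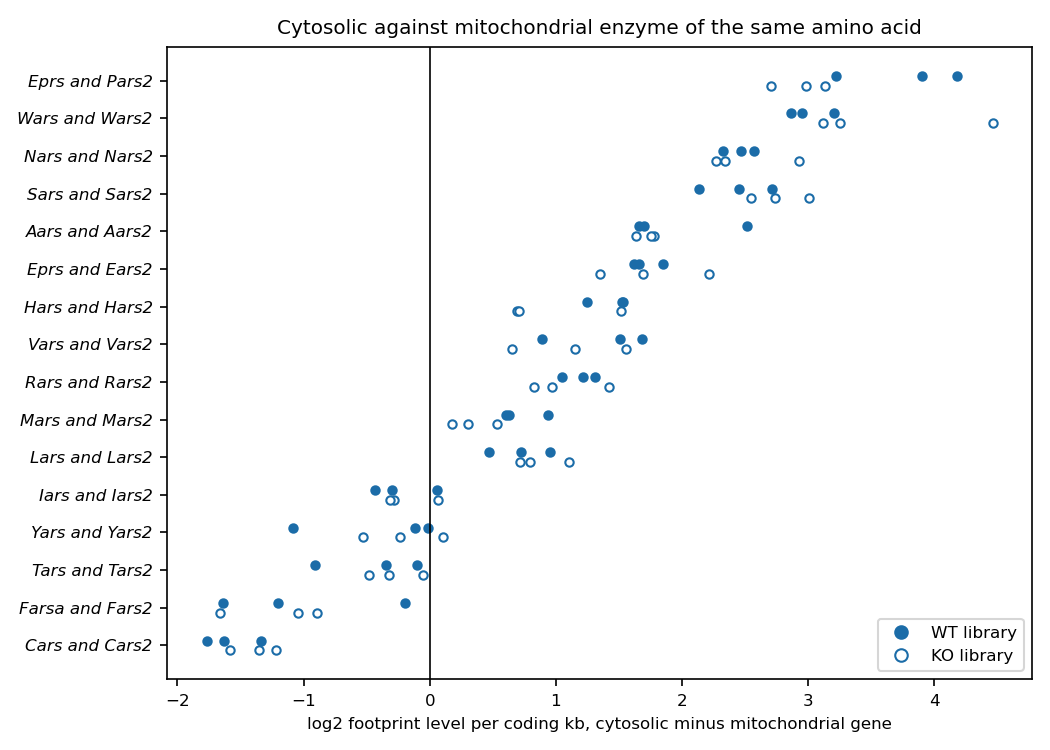
Difference in footprint level between the cytosolic and the mitochondrial enzyme of the same amino acid in each RPF library. It is given as log2 CPM per coding kb after adding 0.5 CPM. Filled points are WT and open points KO libraries, and points right of 0 mean that the cytosolic gene is higher. Of the 16 pairs drawn, all 6 points lie right of 0 in 11, and in the 3 lowest pairs all 6 lie left of it.

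RNA levels spread more widely than footprint levels. Over the members in WT the spread was 792-fold per kb of transcript, against 32.0-fold for footprints per kb of coding sequence. The 2 lengths are unlike for *Mars2*, the lowest in RNA, at 11.3 and 1.76 kb, which widens the RNA spread. *Aimp1* had the highest RNA level, 102, 78.7 and 77.5 CPM per transcript kb in WT and 92.4, 93.8 and 80.6 in KO. In the complex, *Kars* and *Eprs* had 63.8 ± 9.1 and 60.0 ± 16.8 in WT, followed by the arginyl enzyme *Rars* at 16.6 ± 3.5 (SD, n = 3). The lowest of the complex were *Iars*, the isoleucyl enzyme, at 1.92 ± 0.61, *Dars* at 5.22 ± 1.95 and *Lars* at 8.47 ± 0.26. *Dars*, highest of all members in footprints, was therefore among the lower complex enzymes in RNA. Among the other cytosolic enzymes *Gars* (26.1 ± 1.4), *Farsb* (16.4 ± 2.5) and *Nars* (12.4 ± 1.0) were highest. *Tarsl2* (0.932 ± 0.048), the tyrosyl enzyme *Yars* (1.71 ± 0.19) and *Wars* (1.80 ± 0.31) were lowest. Mitochondrial RNA was led by *Fars2* (25.3 ± 0.92), *Cars2* (23.9 ± 2.3) and *Tars2* (14.9 ± 1.2). It reached its lowest values in the methionyl enzyme *Mars2* (0.109 ± 0.028), *Wars2* (0.163 ± 0.088) and the asparaginyl enzyme *Nars2* (0.343 ± 0.068). *Mars2*, *Nars2*, *Pars2* and *Wars2* had fewer than 20 counts in every RNA library, so their RNA values are imprecise. The scaffolds *Aimp2* and *Eef1e1* had 7.61 ± 2.0 and 0.877 ± 0.41.

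Footprints were next compared with RNA of the same gene by edgeR's quasi-likelihood test on the counts of both assays. Scaling across assays sets the log2 value of 0 at a trimmed mean over genes, so a value gives a gene's footprints relative to RNA against other genes, and not the ratio of the levels given above. In WT, 27 of 41 members passed an adjusted p of 0.05, 10 with more and 17 with fewer footprints for their RNA. Of all 10961 genes tested, 74.5% passed, 40.9% higher and 33.6% lower, so passing was no more frequent among members. In KO, 27 members passed, 11 higher and 16 lower, against 76.3% of 11181 genes (41.5% higher and 34.8% lower). In both genotypes 26 members passed, each with the same direction, 10 higher and 16 lower. The filter kept genes with enough counts in either assay. *Mars2*, *Nars2*, *Pars2* and *Wars2*, each under 20 counts in every RNA library, were kept through their footprint counts, which favours a higher value. All genes tested include others that entered in this way. The calls of 24 of the 27 members in WT and 25 of the 27 in KO held under each alternative that tested them.

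By role, 8 of 8 complex enzymes passed in WT, beside 74.5% of all genes tested, with 6 lower and *Dars* and *Iars* higher. *Eprs* had 371, 305 and 207 CPM in RNA WT and 194, 193 and 154 in RPF WT, a log2 value of -2.83 ± 0.25 (SE; adjusted p = 2.03e-07, edgeR). *Kars* was at -2.44 ± 0.20 (adjusted p = 1.15e-07). *Iars* had only 5.72, 8.68 and 11.1 CPM in RNA WT but 150, 130 and 111 in RPF WT, giving 1.81 ± 0.25 (adjusted p = 1.40e-05). *Dars* was at 1.41 ± 0.25 (adjusted p = 0.000169). Enzymes of the complex thus differed among themselves by over 4 log2 units in this measure. Among the scaffolds *Aimp1* had the lowest value of any member, -3.02 ± 0.22 (adjusted p = 3.14e-08), and *Aimp2* passed in WT only, at -0.59 ± 0.25 (adjusted p = 0.0453). Whether *Aimp2* differs between genotypes in this measure was tested as the interaction, which gave an unadjusted p of 0.395 (edgeR).

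Of the 13 other cytosolic enzymes, 4 passed higher and 5 lower in WT, beside 40.9% and 33.6% of all genes tested. *Wars* had 2.72, 3.24 and 3.87 CPM in RNA WT and 83.9, 76.0 and 69.8 in RPF WT, a log2 value of 2.42 ± 0.24 (SE; adjusted p = 6.25e-07, edgeR). *Tarsl2* was at 2.11 ± 0.24 (adjusted p = 2.07e-06), while *Tars* was at 0.23 ± 0.25 and did not pass. *Cars* was at the opposite end, at -2.46 ± 0.25 (adjusted p = 6.57e-07). *Gars*, used in both compartments, was at -1.15 ± 0.19 (adjusted p = 7.16e-05). Of the 17 mitochondrial enzymes, 4 passed higher and 4 lower in WT, beside the same 40.9% and 33.6% of all genes. The higher ones were *Mars2* (2.43 ± 0.33), *Nars2* (1.92 ± 0.34), the leucyl enzyme *Lars2* (1.72 ± 0.28) and the histidyl enzyme *Hars2* (0.63 ± 0.25). Of these *Mars2* and *Nars2*, like *Wars2* in KO below, were kept by the filter through their footprint counts, which favours a higher value. The lower mitochondrial enzymes were *Cars2* (-2.21 ± 0.20), *Fars2* (-1.93 ± 0.21), the arginyl enzyme *Rars2* (-1.88 ± 0.23) and *Tars2* (-1.34 ± 0.19). The calls on *Aimp2*, *Hars2* and the valyl enzyme *Vars* (-0.57 ± 0.21) in WT were weak. *Hars2* lost its call without any of RPF WT libraries 2 and 3 or RNA WT libraries 1, 2 and 3, *Aimp2* without any of RPF WT 1, 2 and 3 or RNA WT 1 and 3, and *Vars* without RPF WT 1 or 3 or RNA WT 2. Their adjusted p without a library reached 0.0885, 0.137 and 0.101 (edgeR). In KO, *Wars2* passed (1.41 ± 0.60, adjusted p = 0.0437) but not with the replicate number as a block (adjusted p = 0.0672). Without RPF KO 2 or 3 or RNA KO 2 or 3 its adjusted p reached 0.22. *Lars* lost its KO call (-0.50 ± 0.17) without RPF KO 3 (adjusted p = 0.0657) or RNA KO 3.

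This measure rose with the length of the 3′ untranslated region (3′ UTR), in members as in all genes. Over all genes, the median WT value went from -2.09 for 3′ UTRs of at most 100 bases to 1.70 in the class of the longest 3′ UTRs. Between the same classes the median RNA level went from 17.1 to 1.31 CPM, whereas the median RPF level went from 21.9 to 18.2 CPM. Spearman's rho between 3′ UTR length and the WT value was 0.47 over 10613 genes, 0.70 over the 41 members, 0.83 over the 17 mitochondrial and 0.53 over the 21 cytosolic enzymes. These correlations are across genes that share the same libraries and depth, so they are descriptions without a p-value. The coding length gave 0.14 over all genes and -0.14 over members. *Eprs*, *Kars* and *Aimp1* have annotated 3′ UTRs of 213, 165 and 76 bases, and *Mars2*, *Nars2* and *Wars2* of 9470, 2045 and 3296 bases. Which part of each transcript was counted is not given in the sources used here, and its part in this relation was not tested.

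**Figure D3:**
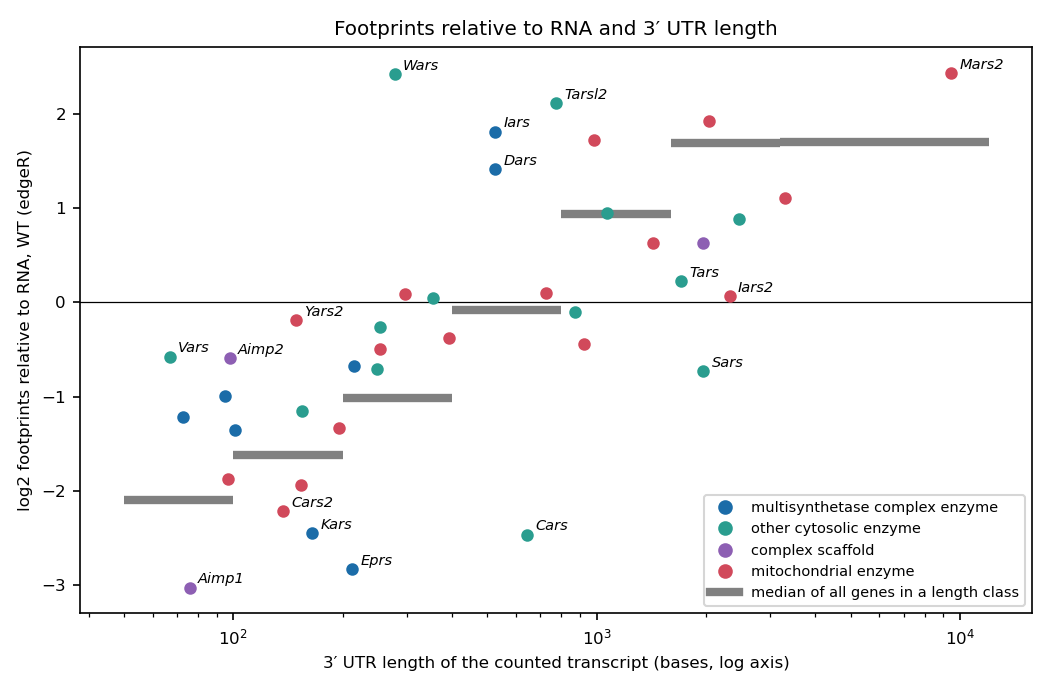
Footprints relative to RNA in WT (log2, edgeR, vertical axis) against the annotated 3′ UTR length of 40 members in bases (log axis). Points are members coloured by role, and grey bars give the median of all genes in a length class, the leftmost for 0 to 100 bases and the rightmost for the longest 3′ UTRs. The grey bars climb from -2.09 to 1.70, and Wars, Sars and Cars lie farthest from the bar of their class.

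Set against genes of its own 3′ UTR class, 23 of 41 members lay within 1 log2 unit of the class median in WT. *Wars* then stood highest, 3.44 above its class and at the 98.3rd percentile of it, with *Tarsl2* 2.19 and *Iars* 1.89 above theirs. *Sars*, at -2.42, and *Cars*, at -2.38, stood lowest, followed by *Eprs* at -1.81. The KO values were 3.62 for *Wars*, 2.62 for *Tarsl2*, 1.84 for *Iars*, -2.38 for *Sars*, -1.85 for *Cars* and -1.47 for *Eprs*. The mitochondrial enzymes with extreme values, *Mars2* and *Cars2*, were then 0.74 above and 0.59 below their class. Farthest from their class among the mitochondrial enzymes were *Iars2* (-1.62), *Yars2* (1.44), *Vars2* (-1.38) and *Sars2* (1.11). Of the 17 mitochondrial enzymes 13 lay within 1 log2 unit of their class, compared with 9 of the 21 cytosolic enzymes. This split was not tested, since members are not replicates. The medians relative to class were 0.22 for mitochondrial enzymes, 0.61 for complex enzymes and 0.32 for the other cytosolic enzymes.

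Some of these counts carry an annotation overlap. The 3′ part of *Aars*, the alanyl enzyme, shares 1326 exonic bases with *Exosc6* on the same strand, including 1299 identical windows of 28 bases, so reads there could belong to either gene. *Tarsl2* shares 120 exonic bases with *Tm2d3* on the same strand. Opposite-strand overlaps were longest for *Iars2* with *Rab3gap2* (2034 bases) and for *Aimp2* with *Eif2ak1* (487 bases), and *Hars* overlaps *Hars2* by 195 bases. The labels describe strand-specific RNA libraries, but whether the counting used strand is not given in the sources used here.

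Loss of *Rpl3l* was accompanied by no called change in any member. In RNA 0 of 38 members tested passed an adjusted p of 0.05 with edgeR's quasi-likelihood test, against 0.0119% of 8379 genes, and 1 member had an unadjusted p below 0.05. In footprints 0 of 41 passed, against 0.00897% of 11153 genes, and 0 had an unadjusted p below 0.05. For footprints relative to RNA between genotypes (the interaction of assay and genotype) 0 of 38 passed, against 0% of 8044 genes, and 1 member had an unadjusted p below 0.05. DESeq2 called 0 members in each of these 3 comparisons. *Nars2*, *Pars2* and *Wars2* had too few RNA counts to be tested in RNA or in the interaction. The log2 changes ran from -0.47 to 0.41 in RNA, with a median standard error of 0.21. Those of footprints lay between -0.50 and 0.92, with a median standard error of 0.18. In simulated counts of this depth and spread the test recovered 38% of 2-fold and 82% of 3-fold changes in RNA, and 34% and 80% in footprints. Changes were planted in 50 genes at each fold from 1.5 to 4, drawn from all genes tested. With fewer changed genes the adjusted threshold is stricter, so these rates need not hold for a member. A 2-fold change could thus be missed.

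**Figure D4:**
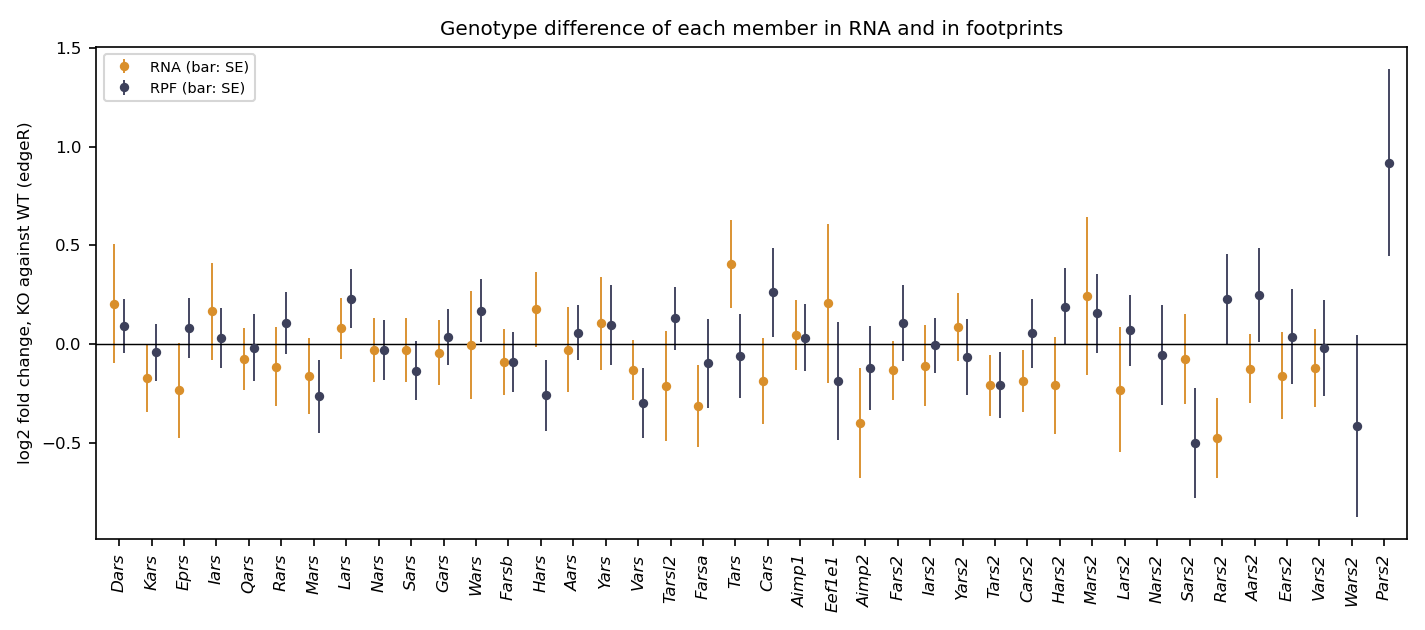
Log2 fold change of KO against WT in RNA (orange) and in footprints (dark blue), from edgeR, with bars for the standard error, for 40 members ordered by role and WT footprint level. Values lie within 1.5-fold of no change except that Pars2 lies outside at 0.92 in footprints.

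The members nearest to a difference are given with their values. *Rars2* had 22.6, 18.5 and 16.4 CPM in RNA WT and 12.97, 16.9 and 11.6 in RNA KO, and its groups overlapped. Its RNA log2 change was -0.47 ± 0.20 (SE; unadjusted p = 0.042, adjusted p = 0.999, edgeR). Its footprints did not follow, with 26.1, 18.7 and 23.0 CPM in WT and 21.2, 29.2 and 29.3 in KO. The interaction for *Rars2* was 0.73 ± 0.31 (unadjusted p = 0.032), and it passed the adjusted threshold under 0 of the alternatives tried. With the 3′ UTR difference of the RNA libraries, described further on, as a covariate the RNA value was -0.31. *Rars2* was among the members that differed between the 2 sets of RNA libraries. *Pars2* was the member with KO and WT footprint libraries apart, at 0.92 ± 0.47 (unadjusted p = 0.071, adjusted p = 0.835, edgeR), 1 of 41 members, where 6.28% of genes tested were higher in every KO library. None was lower in every KO library, where 5.77% of genes were. *Farsa*, *Cars2* and *Fars2* were lower in every RNA KO library than in any RNA WT library, 3 of 38 members, where 3.23% of genes tested were, and 0 members were higher in each, where 4.14% of genes were. Their RNA log2 changes were -0.31 ± 0.21, -0.19 ± 0.16 and -0.13 ± 0.15.

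The remaining members with the smallest p on each side were as follows. In RNA, *Tars* (0.41 ± 0.22), *Hars* (0.18 ± 0.19) and *Dars* (0.20 ± 0.30) had positive values and *Aimp2* a negative one (-0.40 ± 0.28). In footprints, *Lars* (0.23 ± 0.15) and *Cars* (0.26 ± 0.22) had positive values, and *Sars2* (-0.50 ± 0.28), *Vars* (-0.30 ± 0.18) and *Hars* (-0.26 ± 0.18) negative ones. In the interaction *Cars* (0.47 ± 0.31) and *Hars2* (0.42 ± 0.29) had positive values, and *Hars* (-0.41 ± 0.27), *Tars* (-0.44 ± 0.33) and *Sars2* (-0.40 ± 0.37) negative ones. For *Dars* in RNA the sign itself changed, to -0.01 without RNA WT library 2. Without RPF WT library 2 the footprint values became -0.20 for *Sars2* and -0.09 for *Vars*, and the interaction -0.10 for *Sars2*. That library had the highest summed level of 5 adipose markers in RPF WT, 513 CPM, where the lowest was 105. The part of this in the values was not tested. The footprint value of *Hars* ran from -0.46 to -0.15 over the libraries left out. With all libraries kept, no member's adjusted p in these 3 comparisons fell below 0.835 (edgeR).

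Summed over members, the cytosolic enzymes had 1881 ± 106 CPM in RPF WT and 1886 ± 54 in RPF KO, and the mitochondrial enzymes 608 ± 11 and 621 ± 16 (SD, n = 3). The RNA sums were 880 ± 98 CPM in WT and 809 ± 47 in KO for cytosolic enzymes. The mitochondrial enzymes summed to 245, 237 and 236 CPM in the WT libraries and to 217, 210 and 217 in the KO libraries. These sums depend on the TMM scaling, and how often sums of other genes differ as much was not tested. Of the 14 mitochondrial enzymes tested in RNA, 11 had a negative and 3 a positive change, with a median of -0.13, beside -0.0066 over all genes. Over all 38 members tested, 27 were negative and 11 positive, with a median of -0.10. No test is attached to such sums or counts. The summed level of 6 macrophage markers was also lower in KO, at 134 to 148 CPM in RNA against 156 to 164 in WT, and at 406 to 442 against 443 to 515 in RPF. None of the 6 was at 0, and 3 of them had a negative change in RNA and 5 in RPF, with 0 called. The part of that shift in the enzymes' values was not tested. In tissue RNA, fewer cells of a type and less RNA per cell cannot be told apart.

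The 2 sets of RNA libraries did not follow genotype. Along the first principal component, which held 47.9% of the variance, WT 1, WT 2 and KO 2 lay on one side and WT 3, KO 1 and KO 3 on the other. The same sets differed in how strongly RNA fell with 3′ UTR length: genes with 3′ UTRs over 1600 bases lay below those of at most 200 bases by log2 values of -3.23, -3.09 and -3.15 in the former and -2.90, -2.87 and -2.86 in the latter. For the members, comparing 14 with 3′ UTRs over 800 bases with 13 of at most 200, the values were -2.98, -3.02 and -2.91 against -2.58, -2.34 and -2.44. Members followed this split much as other genes did. *Dars*, *Eef1e1*, *Hars*, *Iars2*, *Tars* and *Yars* were among the 7 of 38 members (18.4%) higher in each of WT 3, KO 1 and KO 3, beside 17.8% of genes. *Cars*, *Eprs*, *Mars*, *Rars*, *Rars2* and *Tars2* were lower there, 6 members (15.8%) beside 18.4% of genes. *Eprs*, for example, had 75.6, 62.2 and 63.2 CPM per transcript kb in WT 1, WT 2 and KO 2 but 42.2, 45.8 and 44.3 in WT 3, KO 1 and KO 3. What separates the sets is not in the labels and was not tested. With the 3′ UTR difference of each RNA library as a covariate, 0 members passed between genotypes in RNA or in the interaction, and the *Dars* value turned to -0.07.

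**Figure D5:**
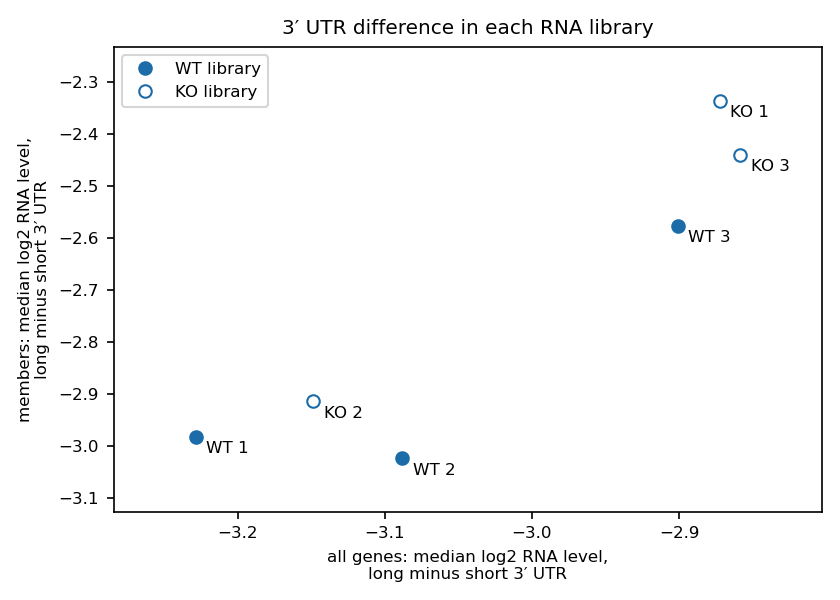
Difference in median log2 RNA level between genes with long and with short 3′ UTRs in each RNA library, for all genes (horizontal axis) and for members (vertical axis). Filled points are WT and open points KO libraries. WT 1, WT 2 and KO 2 lie at the lower left, from -3.23 to -3.09 on the horizontal axis, and WT 3, KO 1 and KO 3 at the upper right.

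Partners of the synthetases were read from 3 lists. Of 18 mitochondrial partners, which process, modify, charge or use tRNAs, 0 passed between genotypes in footprints, and 0 of the 17 tested in RNA and the interaction, where *Gatc* was too low in RNA to be tested. In footprints relative to RNA in WT, 3 passed higher and 8 lower of 18, beside 40.9% and 33.6% of all genes tested. *Gatc*, a subunit of the amidotransferase that makes glutaminyl-tRNA in mitochondria, was at 2.24 ± 0.53, and the elongation factors *Gfm1* and *Gfm2* at 1.12 ± 0.20 and 0.94 ± 0.21. The initiation factor *Mtif2* was at -2.07 ± 0.22, the tRNA thiolase *Trmu* at -1.63 ± 0.25 and *Hsd17b10*, a subunit of mitochondrial RNase P, at -1.48 ± 0.18. *Mto1*, which modifies the wobble base of mitochondrial tRNAs, had an unadjusted p of 0.012 in the interaction (0.95 ± 0.33) and did not pass. Of 11 cytosolic partners, 0 of the 10 tested passed between genotypes in footprints. In RNA and the interaction 0 of the 9 tested passed, where *Dtd2* was left out in the same way. For footprints relative to RNA in WT, 2 passed higher and 7 lower, beside the same 40.9% and 33.6% of all genes. The proofreading deacylases *Dtd1* and *Dtd2* were at 1.53 ± 0.46 and 1.06 ± 0.42. Both *Gatc* and *Dtd2* were kept in this comparison through their footprint counts, which favours a higher value. The elongation factor subunits *Eef1b2*, *Eef1d* and *Eef1g* were at -5.27 ± 0.29, -3.84 ± 0.24 and -3.56 ± 0.27.

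The last list held genes of the amino acid response, in which the kinase *Gcn2* senses uncharged tRNA and the transcription factor *Atf4* induces amino acid synthesis, transport and several cytosolic synthetases. Between genotypes 0 of the genes tested passed in RNA (10 tested), footprints (17) or the interaction (10). In RNA 8 of 10 had a positive change with a median of 0.22, and in footprints 7 of 17 were positive with a median of -0.12. *Ddit4*, an inhibitor of mTORC1, had the smallest p in RNA (1.81 ± 0.60, unadjusted p = 0.013), with 0.36 ± 0.26 in footprints. *Asns*, the asparagine synthetase, was at 0.33 ± 0.32 in RNA and -0.25 ± 0.41 in footprints. In footprints relative to RNA in WT, 9 of 15 passed higher and 3 lower, beside 40.9% and 33.6% of all genes tested. Of the higher genes, *Chac1*, *Psat1*, *Sesn2*, *Slc7a5* and *Trib3* were too low in RNA to be tested between genotypes in RNA. They were kept in this comparison through their footprint counts, which favours a higher value. Genes of the partner lists and of this list were not set against their own 3′ UTR class. *Ddit4* (4.10 ± 0.38), the amino acid transporter gene *Slc7a5* (3.93 ± 0.71) and *Sesn2* (3.07 ± 0.66) were highest. *Atf4* itself (-6.43 ± 0.31), *Ddit3* (-5.36 ± 0.30) and the serine synthesis enzyme *Psph* (-2.27 ± 0.48) were lowest. *Ddit3* overlaps *Mars* on the opposite strand by 68 exonic bases.

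Promoters were searched for the core of the amino acid response element, TGATGNAA on either strand, which *Atf4* dimers are known to bind. RefSeq windows from 250 bases before to 50 after the start (GRCm38.p6) matched 31 of the 41 members. The letters occurred in 5 of 14 cytosolic enzymes (35.7%), 0 of 14 mitochondrial enzymes, 0 of 3 scaffolds and 4.51% of 27025 genes. The 5 were *Aars*, *Gars*, *Iars*, *Tars* and *Yars*. A match of each is shown with 11 bases on either side, on the strand of the gene, with the matched letters in capitals.
Aars: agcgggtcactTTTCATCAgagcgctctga
Gars: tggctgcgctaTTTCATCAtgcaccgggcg
Iars: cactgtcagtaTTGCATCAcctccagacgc
Tars: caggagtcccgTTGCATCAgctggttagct
Yars: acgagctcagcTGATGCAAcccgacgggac

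These windows lie at chr8:111033840-111033869 for *Aars*, chr6:55037960-55037989 for *Gars*, chr13:49682126-49682155 for *Iars* and chr4:129189895-129189924 for *Yars*, all on the plus strand. The *Tars* window lies at chr15:11399655-11399684 on the minus strand. In 4 of the 5 genes the motif lies on the opposite strand, so that its reverse complement is printed, and in *Yars* on the strand of the gene. A match is a description of letters and not a measured site. None of the 5 passed between genotypes: their footprint changes were 0.06 ± 0.14 (*Aars*), 0.04 ± 0.14 (*Gars*), 0.03 ± 0.15 (*Iars*), -0.06 ± 0.21 (*Tars*) and 0.10 ± 0.20 (*Yars*). Their RNA changes were -0.03 ± 0.22, -0.04 ± 0.16, 0.17 ± 0.25, 0.41 ± 0.22 and 0.11 ± 0.24. The core of ETS factor sites, CCGGAAG on either strand, occurred in 5 of 14 cytosolic enzymes (*Farsa*, *Gars*, *Kars*, *Mars* and *Sars*), 2 of 3 scaffolds (*Aimp1* and *Aimp2*) and 4 of 14 mitochondrial enzymes (*Cars2*, *Mars2*, *Rars2* and *Sars2*). It occurred in 9.93% of all genes.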

How the data were processed

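The authors deposited 1 table of raw counts for each library, with a whole number for every transcript name. The labels' protocols describe small-RNA libraries of RNase I fragments and strand-specific libraries of polyadenylated RNA. Cutadapt 1.18 and Bowtie2 2.4.2 are named in the submitters' processing notes. The counting program, genome build, region counted, use of strand and treatment of multiply matching reads are not given in the sources used here. Each table listed 21669 names, of which 98.9% matched GENCODE M21 (GRCm38), the source of lengths and coordinates. Promoters were RefSeq windows on GRCm38.p6, and 31 of the 41 members had an entry at their own locus.

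Counts were fitted with edgeR 4.0.16 in R 4.3.3: filterByExpr with a minimum count of 10, TMM scaling, the quasi-likelihood F test, and Benjamini-Hochberg adjustment over all genes tested with a threshold of 0.05. Each of the 5 comparisons used only its own groups, and the interaction used all 12 libraries and the genes kept in RNA as well as in RPF. The standard error was taken as the absolute log2 change over the square root of F. Footprint levels were CPM per coding kb and RNA levels CPM per transcript kb. Before taking logs, 0.5 CPM was added for class differences, amino acid pairs, principal components and the differences between long and short 3′ UTRs. On simulated data the test recovered, at 2-fold, 18% of changed genes for the interaction. DESeq2 1.42.0, other scalings and filters, the replicate number as a block and leaving out each library were tried as alternatives. Figures were drawn with matplotlib 3.10.9.

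Each sample's group and number came from its title. Replicates are described as biological by the series, and no 2 libraries held identical values. Deviations of RNA and RPF libraries of the same number from their group means correlated at 0.106, 0.110 and 0.122 in KO, so the numbers were taken to pair those libraries. In WT the correlations were 0.0774, 0.153 and 0.0764, and there too each number correlated best with its own, so the limit of 0.1 was a choice. Between genotypes at least 1 number was below 0.1 in each assay, with -0.213, 0.360 and 0.410 in RNA. The main tests did not use the pairing, which entered only as the replicate block among the alternatives.

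Members and gene lists were chosen with earlier results of these data known. Named with values are the 3 members with the smallest p on each side of each genotype comparison, up to 6 called members on each side of footprints against RNA in WT, the 3 highest and 3 lowest of each class in RNA, Gars, Kars and the amino acid pairs. Other members were named after their values were seen. Markers whose sums are not printed overlapped between genotypes in each assay. Values of 1 member and 1 promoter match are not reported here, though counts over members include them.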

Additional observations from a re-analysis of the deposited data

How the results depend on the processing

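In RNA, footprints and the interaction, 0 members passed between genotypes under each alternative run. Over all genes the counts were small and moved: in RNA 1 gene passed, 4 without a filter and 2 with the 3′ UTR difference of the libraries as a covariate, which was added after seeing the data. In footprints 1 gene passed, 5 with DESeq2, 60 without a filter, 4 with the replicate block and 1 to 2 without a library. In the interaction 0 passed, 1 with DESeq2 and 3 without a filter. The value of *Dars* in RNA (0.20) turned to -0.074 with the covariate and ranged from -0.013 to 0.55 without a library. For footprints against RNA in WT, 5435 of 6624 genes passed with a mean of at least 50 counts, against 8168 of 10961, since fewer genes were tested. Members called numbered 24 to 25 in WT and 25 to 28 in KO without a library. With the replicate block 25 members passed in WT and 26 in KO. The lost call in KO, where the numbers were taken to pair the libraries, was *Wars2*.

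The class difference in footprints per RNA had no fixed sign. In WT (-0.21) it was 0.28 with amino acids that have both genes, 0.21 without *Gars* and *Kars*, 0.42 with members of at least 50 counts, 0.071 relative to the 3′ UTR class and -0.41 to 0.016 without a library pair. In KO (-0.33) it was 0.031 with amino acids that have both genes and 0.15 with members of at least 50 counts. The RNA class difference (1.72) was 1.5, 1.54 and 0.31 under the first 3 of these choices, 1.43 with 2 CPM added and 1.03 relative to the 3′ UTR class. The footprint class difference (1.16) was 1.53 per transcript length. The causes were not tested. Counts of 2 to 13 reads limit the RNA values of *Mars2*, *Pars2* and *Wars2*.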
